A study of Mus musculus with 24 samples.

Results

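The lysosomal genes described here are 40 genes for soluble hydrolases and membrane proteins of the lysosome and for its regulators. They were taken by gene name from the 43346 rows of the count table, and all 40 were found. All 40 also passed the filter on low counts and were among the 19678 genes tested. By role they comprise 11 proteases, 10 glycosidases, 4 sulfatases, 6 proteins that act on lipids, 7 membrane proteins and 2 regulators, progranulin (Grn) and the transcription factor TFE3 (Tfe3).

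Cortex RNA of 24 mice was sequenced in bulk, 6 mice (3 males and 3 females) in each of 4 groups. R47H induced mice were TREM2-R47H+/+; Cx3cr1CreER/+ and were given tamoxifen, and R47H control mice of the same genotype were given corn oil. WT induced and WT control mice were TREM2-WT+/+; Cx3cr1CreER/+ and were given tamoxifen or corn oil. All 24 mice were of the C57BL/6 strain and carried Cx3cr1CreER, a tamoxifen-dependent Cre recombinase expressed from the Cx3cr1 locus, which is active in microglia and other myeloid cells. Tamoxifen was given to switch on TREM2, a receptor of microglia whose R47H variant raises the risk of Alzheimer's disease, in these cells. No group received tamoxifen without the TREM2 allele, so tamoxifen itself and the induced TREM2 cannot be told apart. The labels do not say whether WT and R47H mice were littermates, so the R47H variant and other differences between the lines cannot be told apart. The ages of the mice and the sex of each sample are not given in the labels.

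Lysosomes are acidic organelles in which soluble hydrolases break down proteins, glycans and lipids, while membrane proteins hold the lumen apart and export the products. Every brain cell has them, and microglia, which take up debris, are rich in cathepsins. Many lysosomal genes carry an element known as CLEAR in their promoters, which TFEB and TFE3 bind.

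The promoter sequences below show which of these genes carry such letters close to their start. RefSeq promoter windows (GRCm38.p6, 250 bases before to 50 after each start) were at hand for 36 of the 40 genes, and Asah1, Ctsb, Ctsh and Npc1 had none. CACGTG, which reads the same on both strands, stood in a window of 14 of the 36 genes (38.9%), against 8.09% of all 27025 genes with a window. TCACGTGA, which also reads the same on both strands and contains CACGTG, stood in 5 (13.9%), against 1.12% of all genes. These 5 were the protease genes Ctsa and Ctsd, the glycosidase gene Gla and the membrane protein genes Mcoln1 and Cln3. Each is shown with the letters around its first match, which is in capitals.
Ctsa, within chr2:164833523-164833822, plus strand: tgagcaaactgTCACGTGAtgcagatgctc
Ctsd, within chr7:142387778-142388077, minus strand: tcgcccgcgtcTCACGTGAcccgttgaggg
Gla, within chrX:134600956-134601255, minus strand: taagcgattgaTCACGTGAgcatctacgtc
Mcoln1, within chr8:3500269-3500568, plus strand: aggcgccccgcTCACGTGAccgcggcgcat
Cln3, within chr7:126583187-126583486, minus strand: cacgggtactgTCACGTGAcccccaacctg
The starts of the matches shown lay at position -13 in Ctsa, -99 in Ctsd, -228 in Gla, -46 in Mcoln1 and -122 in Cln3, counted from the start site of the window. Ctsa held a second match at position 5 and Gla one at -195. For Ctsa and Cln3 the table held a further window, and it had no CACGTG. Those further windows, chr2:164832622-164832921 for Ctsa and chr7:126585768-126586067 for Cln3, span the gene starts of the count table. The windows of Ctsa and Cln3 that hold the matches lie inside the genes as counted. A match is a description of the letters and was not tested for binding. AANNGAAA, the half-site of interferon regulatory factors, was searched on both strands and stood in 11 of the 36 genes (30.6%), against 26.7% of all genes.

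The whole windows are given for the 3 genes called higher in R47H than in WT cortex in more than one comparison, namely Ppt1, Glb1 and Ctsa. Capitals mark CACGTG, which was not in the Ppt1 window, and for Ctsa the window that holds it is shown.
Ppt1, chr4:122835977-122836276, plus strand: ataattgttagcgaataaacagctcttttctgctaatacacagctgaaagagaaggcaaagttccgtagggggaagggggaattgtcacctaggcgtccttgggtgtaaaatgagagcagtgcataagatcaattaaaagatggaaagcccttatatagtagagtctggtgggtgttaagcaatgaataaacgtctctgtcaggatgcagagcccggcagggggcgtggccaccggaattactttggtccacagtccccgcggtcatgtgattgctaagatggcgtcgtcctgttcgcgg
Glb1, chr9:114400828-114401127, plus strand: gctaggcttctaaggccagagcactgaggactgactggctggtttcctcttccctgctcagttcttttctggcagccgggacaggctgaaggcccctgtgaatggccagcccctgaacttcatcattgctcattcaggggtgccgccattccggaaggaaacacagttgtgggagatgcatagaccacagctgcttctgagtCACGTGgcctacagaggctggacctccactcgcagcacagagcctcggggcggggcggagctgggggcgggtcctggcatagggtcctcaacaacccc
Ctsa, chr2:164833523-164833822, plus strand: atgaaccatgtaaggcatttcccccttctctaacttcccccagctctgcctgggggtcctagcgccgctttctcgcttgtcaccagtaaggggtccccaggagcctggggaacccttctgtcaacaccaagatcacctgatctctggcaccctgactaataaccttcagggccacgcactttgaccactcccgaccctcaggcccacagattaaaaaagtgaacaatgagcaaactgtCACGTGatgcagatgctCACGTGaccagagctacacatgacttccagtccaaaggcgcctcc
The last windows belong to Grn, which was called lower in R47H in induced mice and in the average, and to Ctss. Ctss is the cathepsin S gene, whose level was far higher in one library than in the rest. Capitals mark AANNGAAA on either strand. This half-site was not in the windows of Ctsc, Ctsz and Npc2, which were also high in that library.
Grn, chr11:102430257-102430556, plus strand: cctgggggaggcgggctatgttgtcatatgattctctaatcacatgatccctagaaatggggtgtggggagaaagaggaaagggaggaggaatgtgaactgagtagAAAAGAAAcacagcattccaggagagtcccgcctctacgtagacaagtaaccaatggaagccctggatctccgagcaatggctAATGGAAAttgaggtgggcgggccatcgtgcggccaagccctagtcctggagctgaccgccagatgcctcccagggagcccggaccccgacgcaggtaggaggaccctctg
Ctss, chr3:95526536-95526835, plus strand: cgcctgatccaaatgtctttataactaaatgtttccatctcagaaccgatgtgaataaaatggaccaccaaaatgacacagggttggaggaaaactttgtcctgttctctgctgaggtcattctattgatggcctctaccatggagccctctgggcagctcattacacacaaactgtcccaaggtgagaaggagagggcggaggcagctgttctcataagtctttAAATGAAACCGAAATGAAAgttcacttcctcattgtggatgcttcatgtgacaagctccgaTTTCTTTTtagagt

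Total counts ran from 27933505 to 56082520 per library, and the 60 pairs of libraries within a group all differed by more than sampling noise, at 4.60 to 67.8 in chi-square units per degree of freedom. The share of 3 abundant rRNA-like transcripts (Yam1, AY036118, Lars2) averaged 17.0% ± 1.69 in R47H induced, 20.3% ± 2.73 in R47H control, 18.3% ± 3.21 in WT induced and 15.9% ± 3.18 in WT control libraries (SD, n = 6 each). Replicate 6 of the WT induced group stood apart from the others. Its 14 microglia markers summed to 499 CPM (counts per 1000000 of the TMM-scaled library total), against at most 377 in the other 23 libraries, and its 10 blood leukocyte markers to 22.9 CPM, against at most 2.70. Results that rest on this library are given with and without it. The 6 choroid plexus markers ran from 16.3 to 620 CPM in R47H induced, from 30.8 to 543 in R47H control, from 16.7 to 251.1 in WT induced and from 14.6 to 378 in WT control libraries. Counts of the mouse Trem2 row ran from 6.01 to 7.61 CPM in R47H induced, 6.62 to 9.08 in R47H control, 5.41 to 9.32 in WT induced and 5.93 to 6.96 in WT control libraries. No comparison called Trem2 (edgeR adjusted p of 0.0726 or more), and the labels do not say whether the induced transcript is counted in that row.

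Most lysosomal genes were expressed well above the typical gene of the cortex. Divided by gene length, 32 of the 40 lay above the median of all tested genes, 3.62 CPM per kb, and their own median was 12.4 CPM per kb. The highest level per length was that of Psap, at 450 CPM per kb, which encodes prosaposin, the precursor of the activators of sphingolipid hydrolases. Lamp1, a heavily glycosylated protein of the lysosomal membrane, had 101 CPM per kb. Ids, the sulfatase iduronate 2-sulfatase, also had 101 CPM per kb. The cysteine protease gene Ctsb followed at 96.0 CPM per kb and the aspartic protease gene Ctsd at 91.9 CPM per kb. The 5 lowest levels were those of Ctsc, a dipeptidyl peptidase, at 1.18, Sgsh, a sulfatase of heparan sulfate breakdown, at 1.46, the aminopeptidase Ctsh at 1.49, Cln3, a membrane protein lost in juvenile Batten disease, at 1.59, and Gusb, β-glucuronidase, at 2.49 CPM per kb.

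Each role held high and low members. The 11 proteases had a median of 20.6 CPM per kb, the 6 lipid-acting proteins 18.6, the 4 sulfatases 17.2, the 7 membrane proteins 12.4 and the 10 glycosidases 6.16. Among the glycosidases, acid α-glucosidase (Gaa) was the highest at 57.6 CPM per kb. Grn had 10.8 and Tfe3 3.35 CPM per kb.

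**Figure D1:**
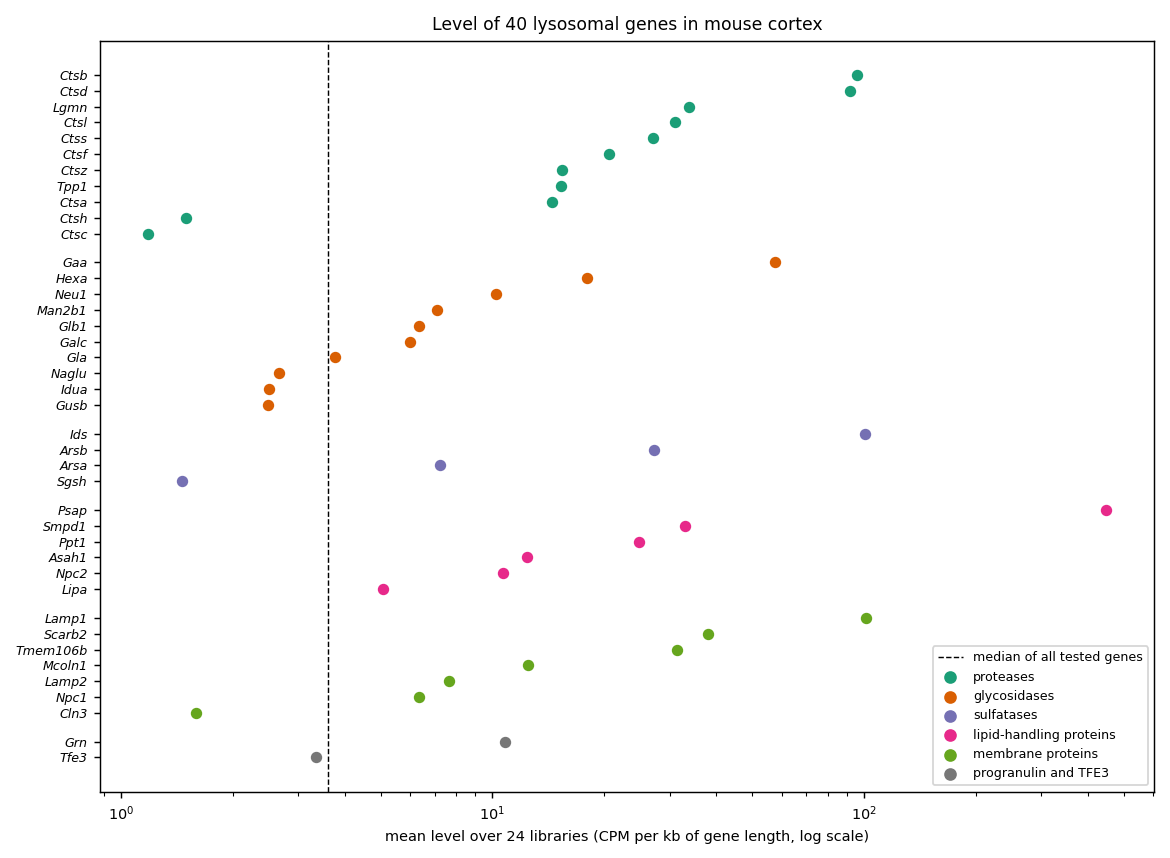
Mean level per kb of gene length of the 40 lysosomal genes over 24 libraries, on a log scale, grouped by role. The dashed line is the median of all tested genes, 3.62 CPM per kb, and 32 genes lie to its right.

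The level of most lysosomal genes varied little from mouse to mouse. The median SD of log2(CPM + 0.5) within groups was 0.089 for the 40 genes, against 0.116 for all tested genes, and 9 of the 40 were above that value. These SDs were not matched for level, and the 40 genes had a higher median level per length than all tested genes. Tpp1, tripeptidyl peptidase 1, had the lowest SD, 0.032, followed by Psap at 0.042. Ctsc, Ctss, Ctsh and Idua had the highest, at 0.398, 0.351, 0.255 and 0.228. With replicate 6 of the WT induced group left out of the SDs of the 40 genes, 7 were above 0.116. That median of all tested genes still came from all 24 libraries. Idua, the glycosidase α-L-iduronidase, then varied most of the 40.

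Replicate 6 of the WT induced group held high levels of some proteases and not of most other lysosomal genes. Ctsc had 23.5 CPM there, against 5.82 to 7.72 CPM in the other 5 libraries of the group. Ctss had 98.6 CPM, against 28.2 to 34.9 CPM. Ctsh had 14.9 CPM, against 5.60 to 8.08 CPM. These 3 genes encode cysteine proteases, and the values in the other 5 libraries overlapped those of the WT control group. For Ctsh the overlap rested on replicate 5 alone, at 5.60 CPM. The rest lay above the highest WT control value, 6.54 CPM. Log2 ratios were taken after 0.5 CPM was added to each level. On this scale, the library exceeded the median of the other 5 by 1.80 for Ctsc, 1.56 for Ctss and 1.002 for Ctsh. The excess was 0.57 for the carboxypeptidase gene Ctsz, 0.42 for Grn and 0.41 for the cholesterol carrier gene Npc2. At the low end stood Ctsa at -0.20, the calcium channel gene Mcoln1 at -0.22 and Gaa at -0.31.

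Of the 40 genes, 20 (50%) had the highest value of the 6 WT induced libraries in this one, against 22.5% of all tested genes. The highest of all 24 libraries was here for 14 (35%), against 9.06% of all tested genes. Proteases made up 7 of those 14, and none was a sulfatase. Beside this, the microglia markers of the library had a median log2 ratio of 0.70, with 12 of 14 at the highest value of the 6. The 3 blood leukocyte markers tested had a median of 2.28, with 2 of 3 at the highest value of the 6. The border macrophage markers had -0.49 and the choroid plexus markers -1.23. The part of these cell types in the lysosomal values was not tested. In bulk RNA, more cells of a type and more RNA per cell cannot be told apart.

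**Figure D2:**
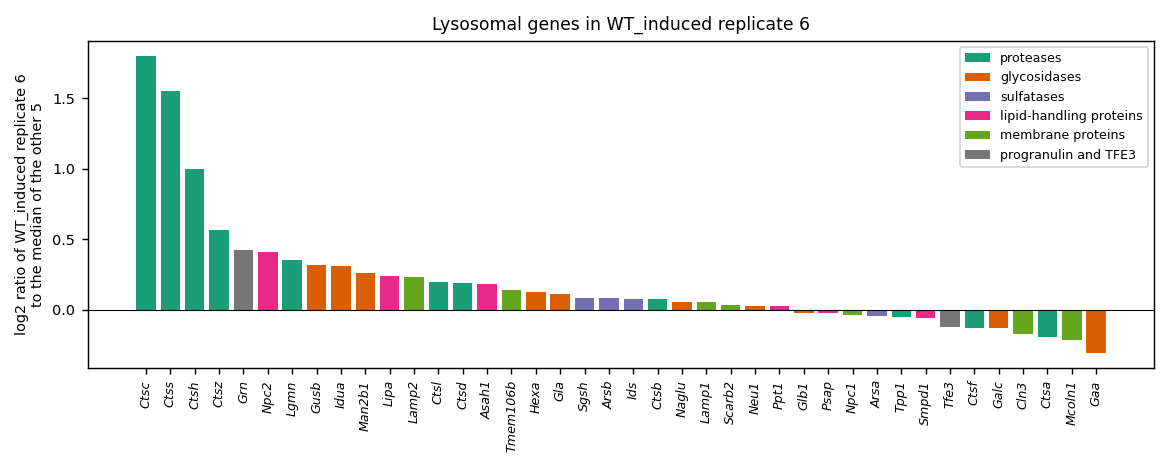
Log2 ratio of the level in replicate 6 of the WT induced group to the median of the other 5 libraries, for each of the 40 lysosomal genes, coloured by role. Both terms of the ratio had 0.5 CPM added. Ctsc (1.80), Ctss (1.56) and Ctsh (1.002) stand above the rest, and Gaa (-0.31) is lowest.

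Induction left the lysosomal genes without a called change in either genotype. In R47H mice, 0 of the 40 genes passed an adjusted p of 0.05 (edgeR quasi-likelihood test, Benjamini-Hochberg over 19678 genes), against 0.0% of all tested genes. An unadjusted edgeR p under 0.05 was found for 1 of the 40, against 1006 of all 19678. In WT mice the count was also 0 of 40, against 0.0% of all tested genes. Here 5 of the 40 had an unadjusted edgeR p under 0.05, against 1545 of all 19678. Without replicate 6 of the WT induced group, 3 of the 40 did, against 1142 of 19811. DESeq2 and limma-voom called 0 of the 40 in either genotype, and DESeq2 called 2 of all tested genes in each. The median log2 fold change of the 40 genes was -0.01 in R47H mice, with 14 above 0, and 0.03 in WT mice, with 30 above 0. Without replicate 6, the WT median was 0.01, with 23 above 0. Over all tested genes, the median was 0.00 in both genotypes.

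The intervals bound what the data allow. The 95% confidence interval of the induction lay within a 1.2-fold change in both directions for 35 genes in R47H mice and 32 in WT mice. The genes with wider intervals were Ctsc, Ctsh, Ctss, Idua and Ppt1 in both genotypes, joined by Ctsz, Grn and Sgsh in WT mice. By role, the WT induction had a median log2 fold change of 0.07 over the 11 proteases, 9 of them above 0. Without replicate 6 that median was 0.00.

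Ppt1, palmitoyl-protein thioesterase 1, which removes fatty acids from proteins and is lost in infantile Batten disease, had the lowest p of the 40 for induction in R47H mice. It had a lowest, median and highest value of 94.5, 107 and 111 CPM in R47H induced, against 80.1, 95.4 and 108 CPM in R47H control libraries. In WT mice it had 78.6, 91.1 and 93.3 CPM in induced, against 72.8, 76.7 and 93.1 CPM in control libraries. The induced median was the higher one in both genotypes, and the ranges overlapped in both. Its induction log2 fold change was 0.14 ± 0.06 (SE) in R47H mice, at an edgeR adjusted p of 0.960, and 0.19 ± 0.06 in WT mice, at an edgeR adjusted p of 0.492. Averaged over genotypes it was 0.16 ± 0.05, at an unadjusted p of 0.00148 and an edgeR adjusted p of 0.995. In that average 0 of 40 genes were called, against 0.0% of all tested genes.

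Other genes had the remaining low p-values of induction. In R47H mice, where each unadjusted p was above 0.05, they were those of Galc, galactosylceramidase, at a log2 fold change of 0.08 ± 0.04, Smpd1, acid sphingomyelinase, at -0.05 ± 0.03, and Hexa, the α subunit of β-hexosaminidase, at -0.07 ± 0.05 (SE). In WT mice they were those of Ctsh at 0.46 ± 0.16, Npc2 at 0.15 ± 0.05 and Grn at 0.16 ± 0.06. Without replicate 6 these WT values were 0.22 for Ctsh, 0.08 for Npc2 and 0.07 for Grn. Averaged over genotypes, Smpd1 had -0.04 ± 0.02 and Ctsh 0.19 ± 0.11. Over 29 alternative fits, among them the one without replicate 6, the averaged Ctsh value ran from 0.07 to 0.24.

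The induction was also compared between the genotypes. For the difference of the inductions (R47H minus WT), 0 of 40 genes were called, against 0.0% of all tested genes. An unadjusted edgeR p under 0.05 was found for 6 of the 40, against 1562 of all 19678. Without replicate 6 of the WT induced group it was found for 4 of the 40, against 1445 of 19811. DESeq2 and limma-voom called 0 of the 40 as well, and DESeq2 called 3 of all tested genes. The lowest p-values were those of Npc2, with a difference of -0.20 ± 0.08, Ctsc with -0.95 ± 0.39 and Ctsh with -0.53 ± 0.22 (log2, SE). Without replicate 6 the differences were -0.13 for Npc2, -0.41 for Ctsc and -0.29 for Ctsh.

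**Figure D3:**
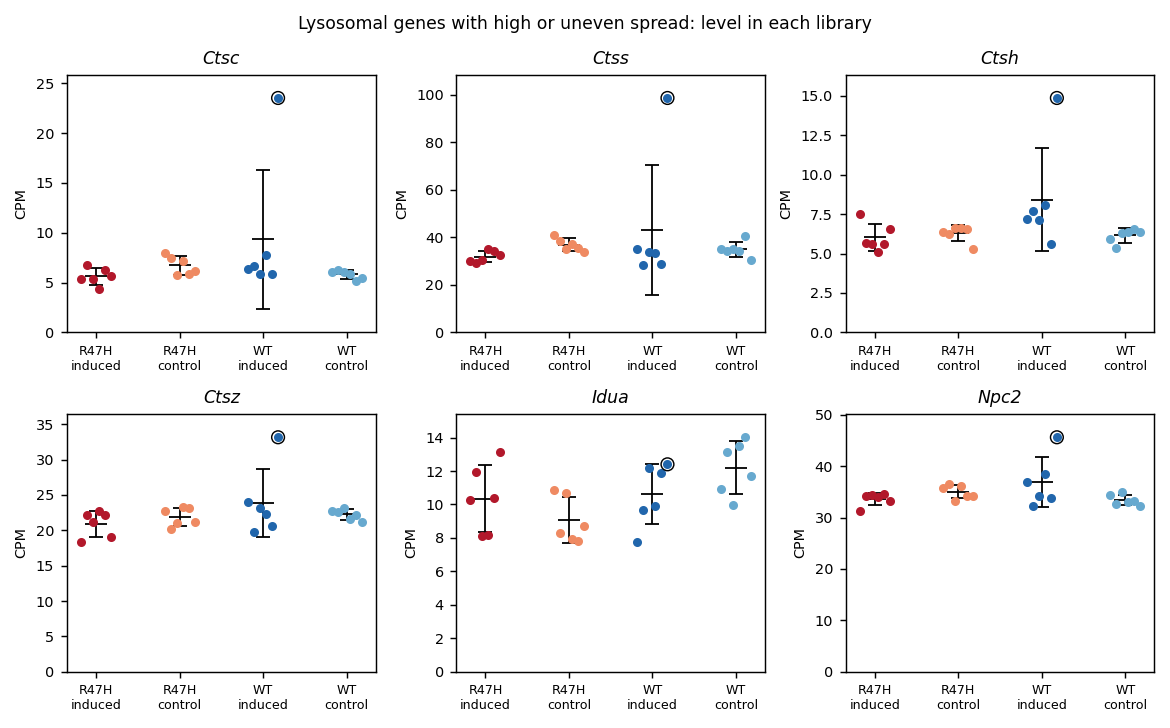
CPM in each library for Ctsc, Ctss, Ctsh, Ctsz, Idua and Npc2, with mean and SD (bars) of 6 libraries per group. The circled point is replicate 6 of the WT induced group, which is the highest of all 24 libraries for Ctsc, Ctss, Ctsh, Ctsz and Npc2, while Idua had 12.4 CPM there, within the range of the WT control libraries.

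R47H and WT cortex differed in a few lysosomal genes, with small fold changes. Averaged over treatments, 6 of 40 genes were called (15%), against 13.8% of all tested genes. Of these, 4 were higher in R47H (10% of the 40), against 6.65% of all tested genes, and 2 lower (5%), against 7.20%. The 4 were Ppt1, Glb1, Ctsa and Ctsl, and the 2 were Ctsb and Grn. The other 34 were not called. The median log2 fold change was 0.00 for the 40 genes and for all tested genes, and the 95% interval lay within 1.2-fold for 34 of the 40.

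Among induced mice, 3 of 40 (7.5%) were called, against 5.80% of all tested genes. These were Ppt1 and Glb1, higher in R47H (2.59% of all tested genes were), and Grn, lower in R47H (3.22% of all tested genes were). Among control mice, 3 of 40 (7.5%) were called, against 5.74% of all tested genes. These were Ppt1, Glb1 and Ctsa, all higher in R47H (2.69% of all tested genes were called higher and 3.04% lower).

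**Figure D4:**
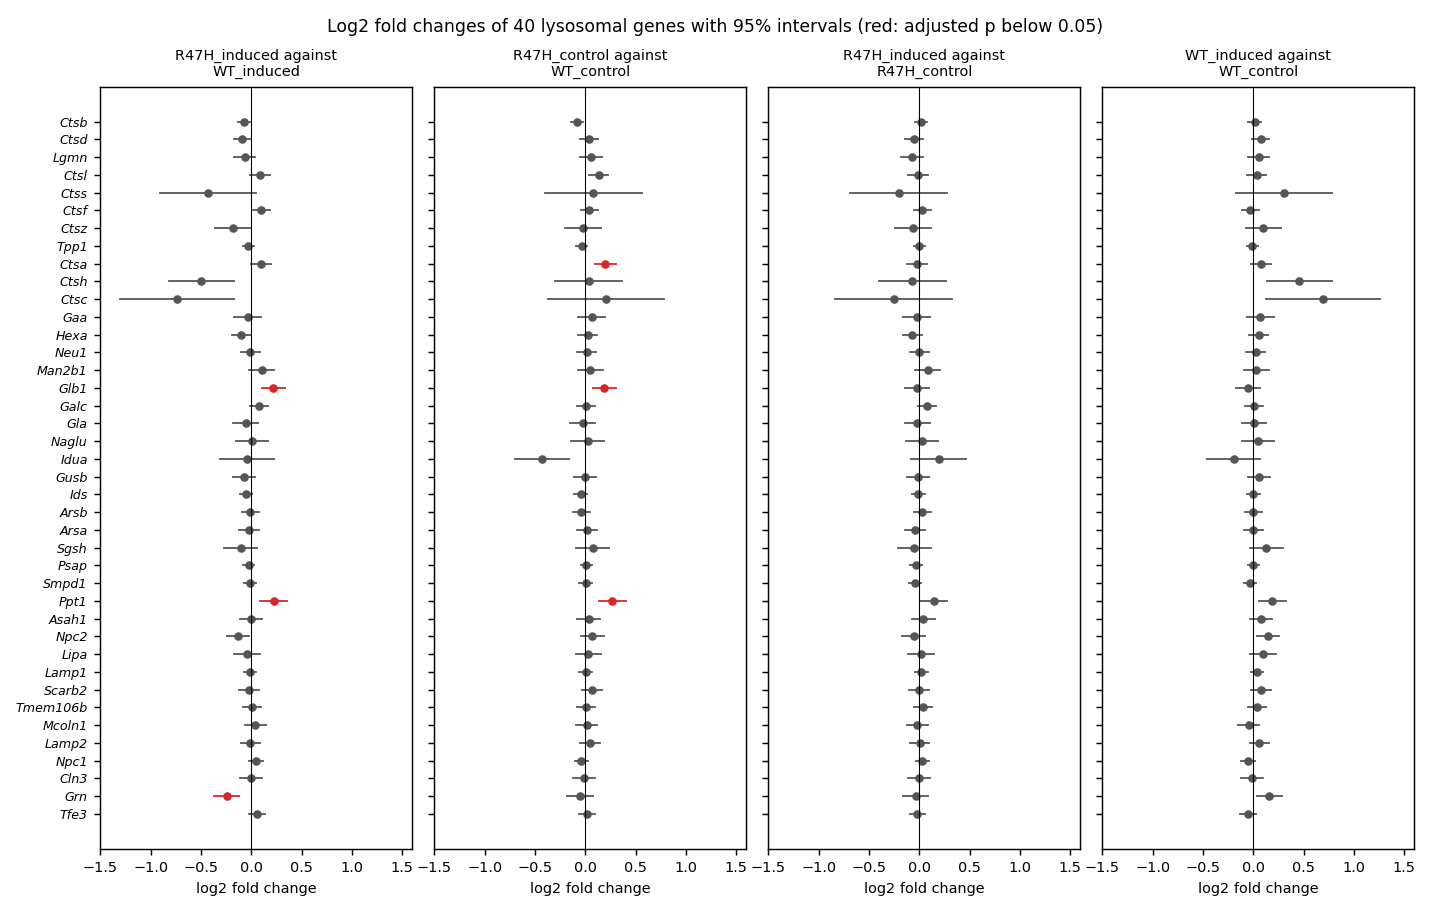
Log2 fold changes of the 40 lysosomal genes with 95% confidence intervals in the 4 comparisons of 2 groups, with called genes in red. Ppt1 and Glb1 are red in both R47H against WT panels, and no gene is red in either induction panel.

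Ppt1 (ENSMUSG00000028657, chr4:122836242-122859175 in the deposited mm10 coordinates) had the largest called difference. All 6 R47H induced libraries, from 94.5 to 111 CPM, lay above all 6 WT induced libraries, from 78.6 to 93.3 CPM. In control mice the ranges overlapped, since replicate 3 of the WT control group had 93.1 CPM and the other 5 at most 77.4 CPM. The log2 fold change of R47H against WT was 0.22 ± 0.06 in induced mice (edgeR adjusted p = 0.0422), 0.27 ± 0.07 in control mice (adjusted p = 0.0150) and 0.24 ± 0.05 averaged (adjusted p = 0.000674; SE). Without replicate 6 of the WT induced group the induced difference was 0.23, at an edgeR adjusted p of 0.0591. By their medians, the groups ran in the order R47H induced, R47H control, WT induced, WT control, and the middle pair, at 95.4 and 91.1 CPM, overlapped in range.

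Glb1 (ENSMUSG00000045594, chr9:114401076-114474376) encodes the lysosomal β-galactosidase, which removes galactose from ganglioside GM1 and from glycans. Its lowest, median and highest values were 13.7, 16.3 and 17.4 CPM in R47H induced, against 12.1, 13.7 and 15.6 CPM in WT induced libraries. They were 14.6, 16.5 and 17.7 CPM in R47H control, against 13.8, 14.3 and 15.1 CPM in WT control libraries. The R47H medians were the higher ones under both treatments, and the ranges overlapped in both. The log2 fold change was 0.22 ± 0.06 in induced mice (edgeR adjusted p = 0.0199), 0.19 ± 0.06 in control mice (adjusted p = 0.0445) and 0.20 ± 0.04 averaged (adjusted p = 0.000785; SE).

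Ctsa (ENSMUSG00000017760, chr2:164832873-164841032) encodes cathepsin A, or protective protein, which stabilises β-galactosidase and neuraminidase 1 in a complex in the lysosome. It had a lowest, median and highest value of 66.2, 73.3 and 76.9 CPM in R47H control, against 59.8, 63.0 and 65.98 CPM in WT control libraries. In induced mice it had 64.0, 72.4 and 74.1 CPM in R47H, against 59.2, 66.3 and 73.6 CPM in WT libraries. The control groups did not overlap, and the induced groups did. The log2 fold change was 0.20 ± 0.05 in control mice (edgeR adjusted p = 0.0136), 0.10 ± 0.05 in induced mice (adjusted p = 0.253) and 0.15 ± 0.03 averaged (adjusted p = 0.00360; SE). The difference between these values, -0.10 ± 0.07, was not called (edgeR adjusted p = 0.759). Neu1, the third enzyme of the complex, was named after its values were seen. Its averaged log2 fold change was 0.00, with a 95% interval of -0.07 to 0.07 (edgeR adjusted p = 0.995).

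Ctsl (ENSMUSG00000021477, chr13:64363214-64370306), a cysteine protease with broad activity on proteins, had a lowest, median and highest value of 59.2, 63.6 and 66.1 CPM in R47H induced, against 54.9, 58.4 and 66.6 CPM in WT induced libraries. It had 60.3, 63.4 and 67.1 CPM in R47H control, against 50.7, 57.9 and 63.3 CPM in WT control libraries. The ranges overlapped under both treatments. It was called only in the average, at a log2 fold change of 0.11 ± 0.03 (SE, edgeR adjusted p = 0.0234).

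Ctsb (ENSMUSG00000021939, chr14:63122462-63145919), another cysteine protease and the most abundant cathepsin per length, was lower in R47H. It had a lowest, median and highest value of 427, 436 and 453 CPM in R47H control, against 455, 465 and 481 CPM in WT control libraries. In induced mice it had 405, 453 and 458 CPM in R47H, against 448, 469 and 492 CPM in WT libraries. The control groups did not overlap, although that comparison alone was not called (log2 fold change -0.08 ± 0.03, edgeR adjusted p = 0.0975). The averaged log2 fold change was -0.08 ± 0.02 (SE, edgeR adjusted p = 0.0109).

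Grn (ENSMUSG00000034708, chr11:102430315-102437048) encodes progranulin, a secreted and lysosomal protein that is cut into granulins and whose loss causes frontotemporal dementia or, with both copies lost, a lysosomal storage disease. It had a lowest, median and highest value of 32.5, 35.2 and 37.4 CPM in R47H induced, against 37.0, 39.96 and 53.6 CPM in WT induced libraries. In control mice it had 32.5, 35.9 and 38.5 CPM in R47H, against 35.9, 37.5 and 38.8 CPM in WT libraries. The highest R47H induced value lay just above the lowest WT induced value, and the control groups overlapped more widely. The log2 fold change was -0.25 ± 0.06 in induced mice (edgeR adjusted p = 0.0150) and -0.15 ± 0.04 averaged (adjusted p = 0.0210; SE). In control mice it was only -0.05 and was not called. The difference of its inductions, -0.20, was not called either. Without replicate 6 of the WT induced group, whose value of 53.6 CPM was the highest of all 24, the induced difference was -0.16 ± 0.04 (adjusted p = 0.0207) and the averaged one -0.11 ± 0.03 (adjusted p = 0.0127).

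**Figure D5:**
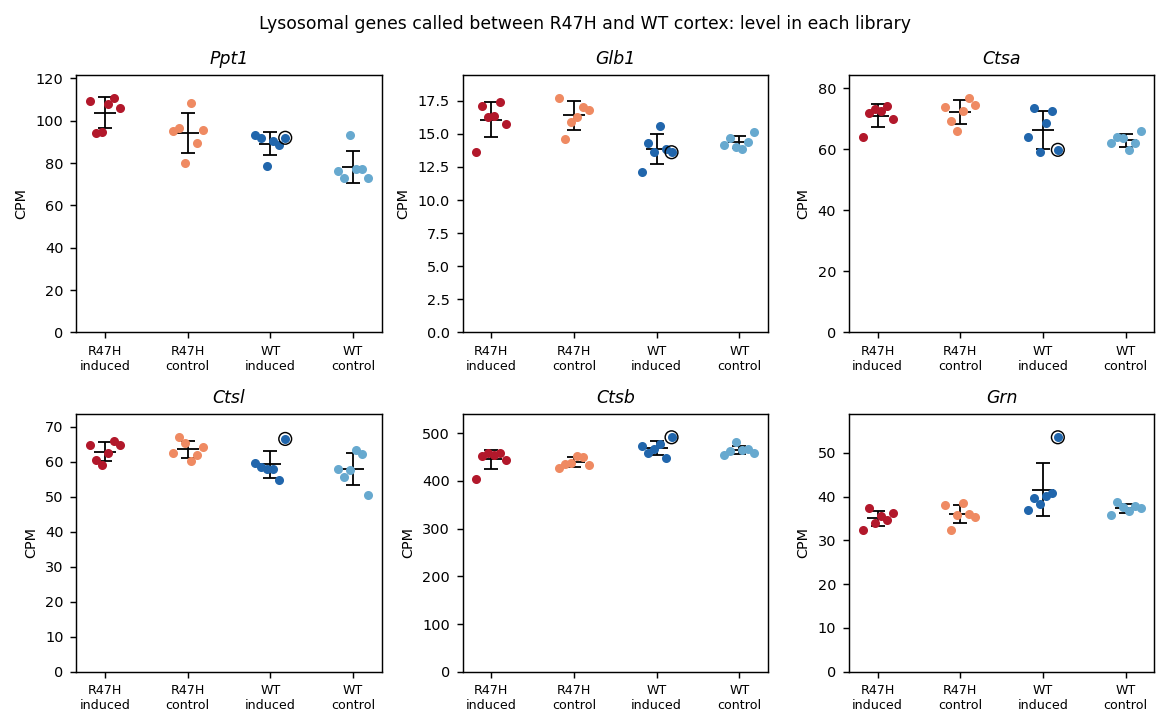
CPM in each library for the 6 lysosomal genes called between R47H and WT cortex, with mean and SD (bars) of 6 libraries per group. The R47H induced points of Ppt1 lie above all WT induced points, and the circled point, replicate 6 of the WT induced group, is the highest of Grn at 53.6 CPM.

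By role, the fold changes of R47H against WT lay close to 0 for most members. The 7 membrane proteins (Lamp1, Lamp2, Scarb2, Tmem106b, Mcoln1, Npc1 and Cln3) had averaged log2 fold changes from -0.01 to 0.03, with a median of 0.01. The 4 sulfatases (Ids, Arsa, Arsb and Sgsh) ran from -0.05 to 0.00, with a median of -0.02. None of these 11 genes was called in any comparison. Of all tested genes, 13.8% were called in the average, 5.80% in induced and 5.74% in control mice. Whether 0 of 11 differs from these shares was not tested. The 10 glycosidases ran from -0.24 for Idua to 0.20 for Glb1, with a median of 0.01, the 6 lipid-acting proteins from -0.03 for Npc2 to 0.24 for Ppt1, with a median of -0.01, and the 11 proteases from -0.27 for Ctsc to 0.15 for Ctsa, with a median of -0.03. Without replicate 6 of the WT induced group the value of Ctsc was 0.00. Psap, the most abundant of the 40, had a mean of 1216 ± 48.2 CPM in R47H induced, 1244 ± 42.0 in R47H control, 1238 ± 12.7 in WT induced and 1238 ± 25.6 in WT control libraries (SD, n = 6 each). Its averaged log2 fold change of R47H against WT was -0.01, with a 95% interval of -0.05 to 0.03.

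Idua and Ctsh had larger fold changes that missed the threshold. Idua had a lowest, median and highest value of 7.80, 8.50 and 10.8 CPM in R47H control, against 9.99, 12.4 and 14.02 CPM in WT control libraries. Its log2 fold change in control mice was -0.43 ± 0.13 (SE, edgeR adjusted p = 0.0506), and -0.04 ± 0.13 in induced mice. The difference of its inductions, 0.39 ± 0.18, was not called (edgeR adjusted p = 0.623). Ctsh had a lowest, median and highest value of 5.10, 5.66 and 7.51 CPM in R47H induced, against 5.60, 7.42 and 14.9 CPM in WT induced libraries. Its log2 fold change was -0.50 ± 0.16 (SE, edgeR adjusted p = 0.0626), and -0.25 ± 0.09 without replicate 6 (adjusted p = 0.113).

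Cell type markers were also compared between R47H and WT cortex. Of all tested genes, 13.8% were called in the average, 5.80% in induced and 5.74% in control mice. The choroid plexus markers were all higher in R47H, 6 of 6 in each treatment, with a median log2 fold change of 0.76 in induced and 0.83 in control mice, though none was called. The 6 endothelial markers had a median of -0.14 in induced mice and -0.08 in the average, with 0 of 6 above 0 in both, and Ly6c1 was called lower in the average. The 6 meningeal fibroblast markers had a median of 0.20 in control mice, with 6 of 6 above 0. One of them, Igf2, was called higher in the average, and none was without replicate 6 of the WT induced group. Of the 8 neuron markers (median -0.03 in the average, 3 of 8 above 0), Rbfox3 was called lower in control mice, and Rbfox3 and Neurod6 in the average. Of the 8 border macrophage markers (median 0.00, 4 of 8 above 0), Pf4 was called higher in the average. The 8 oligodendrocyte markers had a median of -0.06 in the average, with 1 of 8 above 0, and the 8 astrocyte markers 0.02, with 4 of 8. None of either list was called in the fit of all 24 libraries. Without replicate 6 of the WT induced group, 1 astrocyte marker was called higher in control mice and 1 in the average. Of the 3 blood leukocyte markers tested, 1 was above 0 in the average and none was called. Of the 14 microglia markers, 13 were above 0 in R47H control against WT control (median 0.12) and 4 in R47H induced against WT induced (median -0.12, or 0.05 without replicate 6), and none was called. Without replicate 6, 3 of the 14 were called higher in R47H in control mice and 3 in the average. The part of these cell types in the lysosomal values was not tested. With the share of rRNA-like transcripts added to the fit, 1 of the 40 genes was called in control mice, Ctsa (edgeR adjusted p = 0.0377). Of all 19678 tested genes, 451 were called there. Ppt1 then had an edgeR adjusted p of 0.125 and Glb1 of 0.152. In the average, Ctsl was lost under that covariate (edgeR adjusted p = 0.0651) and the other 5 were called, as were 2480 of all 19678 tested genes.

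Reads from overlapping genes cannot be told apart in these libraries, which do not mark strand. In GENCODE vM21, exons of other genes covered 26.8% of the exonic bases of Ctsl, 17.4% of Ctsa, 12.8% of Ctsb, 6.3% of Idua, 5.5% of Glb1, 3.5% of Ppt1 and 2.0% of Grn. Ctsl, Ctsb and Glb1 have other ends in vM21 than in the count table (6489 exonic bases against a length of 1971 for Ctsl, 6051 against 4739 for Ctsb and 3008 against 2395 for Glb1), so these shares describe gene models other than those counted. Within 1 Mb of the called genes, the share of tested neighbours called in the average was 10 of 49 for Ctsa, 13 of 67 for Grn, 4 of 19 for Glb1, 3 of 19 for Ppt1, 1 of 18 for Ctsb and 1 of 13 for Ctsl. Of all tested genes, 13.8% were called in the average. Near lysosomal genes that were not called, the share ran from 0 of 16 for Npc1 to 6 of 18 for Hexa and 2 of 4 for Ctsc. The genes whose exons overlapped those of Ctsa were Neurl2 and Pltp, both on the opposite strand. Neurl2 was itself among the 10 called neighbours of Ctsa. Its part in the Ctsa counts, and so in the Ctsa calls, was not tested.

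A wider list of 101 other lysosomal genes, chosen from textbook knowledge, held 98 tested genes. None was called for either induction, their difference or their average. Averaged over treatments, 6 were called higher and 7 lower in R47H (13 of 98), against the 13.8% of all tested genes. In induced mice, 3 were higher and 3 lower (6 of 98), against 5.80% of all tested genes. In control mice, 5 were higher and 2 lower (7 of 98), against 5.74%. With the rRNA-like covariate, 2 of 98 were called in control mice, Atp6v0c and Gnptg, both higher, against 451 of all 19678 tested genes.

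The largest difference in this list belonged to Atp6v0c, the proteolipid subunit of the proton pump that acidifies lysosomes. It ran from 102 to 136 CPM over R47H induced and from 108 to 134 over R47H control libraries, against 69.7 to 77.2 over WT induced and 67.9 to 98.4 over WT control libraries. All R47H values exceeded all WT values, and the averaged log2 fold change was 0.74 ± 0.06 (SE, edgeR adjusted p = 2.87e-08). Annotated pseudogene copies of Atp6v0c exist, so its count is uncertain. Slc17a5, the sialic acid exporter sialin, had an averaged log2 fold change of 0.23 ± 0.03 (adjusted p = 1.46e-05), and Gnptg, a subunit of the enzyme that tags hydrolases with mannose 6-phosphate, 0.23 ± 0.03 (adjusted p = 1.92e-05). Gnptg and Atp6v0c both lie on chromosome 17, at chr17:25233331-25240124 and chr17:24163866-24169702 in the deposited mm10 coordinates. The α-L-fucosidase gene Fuca1 had 0.11 ± 0.03. The lower genes included Vps33a, of the tethering complexes that fuse vesicles with lysosomes, at -0.11 ± 0.02, the late endosome GTPase Rab7 at -0.08 ± 0.02, and the mTORC1 genes Rraga at -0.09 ± 0.02 and Rptor at -0.11 ± 0.03 (SE). A further 4 called genes were named after their values were seen. Lamtor4, of the Ragulator complex that brings mTORC1 to the lysosome, was higher at 0.14 ± 0.04 (edgeR adjusted p = 0.0170), as was Igf2r, the mannose 6-phosphate receptor that sorts hydrolases, at 0.08 ± 0.02 (edgeR adjusted p = 0.0116). The proton pump subunit genes Atp6v1h and Atp6v0a2 were both lower, at -0.09 ± 0.02 (edgeR adjusted p = 0.00607) and -0.09 ± 0.03 (edgeR adjusted p = 0.0172).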

How the data were processed

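Poly-A RNA of mouse cortex was extracted with Trizol, and libraries were made with the TruSeq v2 kit, which keeps no strand information, per the labels' protocols. The deposited table holds raw read counts per gene and a gene length. Per the submitters' processing notes, STAR 2.5.2b, featureCounts 1.5.1 and build mm10 were used, and the counting options were not given in the sources used here. Each group has 6 samples, and the series text gives 6 mice per group. Groups came from the genotype and treatment labels.

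After TMM scaling and filterByExpr, the 24 libraries entered 1 robust quasi-likelihood fit of edgeR 4.0.16 in R 4.3.3, which gave 7 comparisons. P-values were adjusted by Benjamini-Hochberg over all 19678 tested genes, and called below 0.05. The script was tested on simulated data. Levels are CPM on TMM-scaled totals. Alternatives were RLE scaling, no filter, DESeq2 1.42.0, limma-voom 3.58.1, only the 12 libraries compared, an rRNA-like covariate, leaving out each library and an adjusted p of 0.1.

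The 40 genes and the other lists were chosen with earlier results of these data known. Named were called genes, those with the 3 or 4 lowest p-values per comparison, the 5 highest and 5 lowest per length, and the 6 highest and 3 lowest in the library that stood apart.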

Additional observations from a re-analysis of the deposited data

Results flagged for a closer look

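In 12 of 96 sets of 6 libraries (24 named lysosomal genes in 4 groups), one library lay outside Dixon's 95% limit for 6 values. Chance flags about 1 in 20 sets, but the 12 cannot be read against that, since some of the 24 genes were named because they were high in one library. Of the 12, 6 were high values in replicate 6 of the WT induced group. There Ctss had 98.6 CPM, Grn 53.6, Ctsz 33.2, Ctsc 23.5, Ctsh 14.9 and Gusb 14.04 CPM. All of these but Gusb were among the genes named for their high level in that library. Gusb encodes β-glucuronidase, and its other 5 values in the group ran from 10.9 to 11.5 CPM.

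Ppt1 was low in replicate 3 of the WT induced group, at 78.6 CPM against 88.6 to 93.3 CPM in the other 5, and high in replicate 3 of the WT control group, at 93.1 CPM against 72.8 to 77.4 CPM. Ctsb had 405 CPM in replicate 1 of the R47H induced group, against 445 to 458 CPM in the other 5. Cln3 had 10.1 CPM in replicate 5 of that group, against 8.76 to 9.11 CPM. Ctsh had 5.28 CPM in replicate 6 of the R47H control group, against 6.23 to 6.64 CPM. Gusb had 10.2 CPM in replicate 3 of that group, against 11.2 to 11.7 CPM.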

How the results depend on the processing

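The counts of called lysosomal genes for both inductions, their difference and their average were 0 under every alternative run. For R47H against WT averaged over treatments the count ran from 5 to 7. Of all tested genes, 2724 were called in the main fit. Under the alternatives that number ran from 2287 of 34082 without the filter to 3775 of 19678 at an adjusted p below 0.1. In induced mice the main count of 3 was 1 with only the 12 libraries compared, and 1 to 3 with 1 library left out. The count was higher with DESeq2, which kept Ppt1, Glb1 and Grn and also called Ctsh. Ctsh (edgeR adjusted p = 0.0626) also passed at an adjusted p below 0.1. Of all tested genes, 1142 of 19678 were called there in the main fit and 826 of 18969 with only the 12 libraries. DESeq2 called 1494 of 20828 there, and 1853 of 19678 passed at an adjusted p below 0.1. With 1 library left out, 875 to 1156 of all tested genes were called. In control mice the main count of 3 was 6 at an adjusted p below 0.1, 5 with DESeq2 and 1 with the rRNA-like covariate. Of all tested genes there, 1129 of 19678 were called in the main fit and 1953 at an adjusted p below 0.1. DESeq2 called 1476 of 18858, and the fit with the covariate 451 of 19678. No direction turned among the values named for the lowest p of a comparison. Outside these, the averaged induction of Ctss, which was not called, was 0.05 with and -0.17 without replicate 6 of the WT induced group. Glb1 in control mice lost its call in 18 of 30 alternatives (highest adjusted p 0.152), and Ppt1 in induced mice in 17 of 30 (highest 0.0952), while Glb1 in induced mice lost its call in 4 of 30 (highest 0.0630). Idua in control mice gained a call in 11 of 30 (lowest adjusted p 0.0149) and Ctsh in induced mice in 3 of 30 (lowest 0.0178). Grn in induced mice lost its call only with the 12 libraries compared (adjusted p 0.0843). Ppt1, Glb1, Ctsa, Ctsb and Grn kept their calls in the average in all 29 alternatives, and Ctsl in 28. The cause was not tested. No paired analysis was possible because the labels give no replicate numbers and the numbers used here follow accession order. Counting precision was lowest for Sgsh, Ctsh, Ctsc and Naglu, which had the lowest CPM of the 40 genes. Sex was not fitted, because the labels do not give it for each sample.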

Other observations

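Ctss, which encodes a cathepsin of antigen-presenting cells, had lower induced than control medians in both genotypes, at 31.5 CPM in R47H induced against 36.4 CPM in R47H control, and 33.5 CPM in WT induced against 34.6 CPM in WT control libraries. Without replicate 6 of the WT induced group its averaged induction log2 fold change was -0.17 ± 0.05 (SE), at an edgeR adjusted p of 0.9996 over all tested genes, and with it 0.05 ± 0.16.

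Aga and Cd68, of the wider list of lysosomal genes, were named after their values were seen. Aga, which encodes aspartylglucosaminidase, was called higher in R47H than in WT control cortex at a log2 fold change of 0.47 ± 0.13 (SE, edgeR adjusted p = 0.0304), but not with the rRNA-like covariate, at 0.39 ± 0.15 (edgeR adjusted p = 0.216). It had -0.10 ± 0.13 in induced mice without the covariate. The difference of its inductions was -0.58 ± 0.19 and was not called (edgeR adjusted p = 0.528). Cd68, a lysosomal membrane glycoprotein of macrophages, was lower in R47H averaged over treatments, at -0.19 ± 0.06 (SE, edgeR adjusted p = 0.0486), and not called without replicate 6 of the WT induced group, at -0.16 ± 0.06 (edgeR adjusted p = 0.0865).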
